A study of Macaca fascicularis with 22 samples.

Results

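Apolipoproteins are the protein coats of the lipid particles that circulate in blood, and hepatic lipase trims the lipids of those particles at the surface of liver sinusoids. Hepatocytes secrete most of them: apolipoprotein B forms the scaffold of very low and low density lipoprotein, apolipoproteins A-I and A-II build high density lipoprotein (HDL), and the smaller exchangeable apolipoproteins move between particles and tune the enzymes and receptors that act on them. Their messenger RNAs are therefore textbook markers of hepatocytes, with the intestine as the other main source of apolipoproteins A-I, A-IV and B, and with macrophages as a known source of apolipoprotein C-I.

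The genes described here were chosen by accession or probe from a list of 10 written out for this group. Of the 10, 8 were found on the array, each as 1 probe printed on 2 spots: APOA1 (NM_000039), APOA2 (NM_001643), APOA4 (NM_000482), APOA5 (probe A_01_P014724, NM_052968), APOB (NM_000384), APOC1 (NM_001645), APOH (NM_000042) and LIPC (probe A_01_P015136, NM_000236). The accessions listed for APOC3 and APOE were not matched and carry no value here. The 8 probes were among 20217 probes in all, and all 8 were kept by the filter on dim probes, which left 17117. Each of the 8 was well above background on all 8 arrays labelled umbilical cord and passed there whatever its level elsewhere, so that being kept says nothing further about them. On the RefSeq cynomolgus assembly T2T-MFA8v1.1, APOA5, APOA4, APOC3 and APOA1 lie next to each other in that order, whereas APOA2, APOB, APOH and LIPC each lie between genes of other families.

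The study compared term neonates of the cynomolgus macaque, Macaca fascicularis, born at the 50 to 75th centile of birth weight (average birth weight, ABW) with those born at the 5 to 25th centile (lower birth weight, LBW). Both groups came from natural, unmanipulated pregnancies and, per the methods, from dams mated to a single male. Total RNA was hybridised to one-colour Agilent rhesus macaque arrays. There were 4 ABW and 4 LBW arrays of skeletal muscle, 3 and 3 arrays labelled liver, and 4 and 4 arrays labelled umbilical cord, 22 in all. Per the methods the cord was collected at birth, and biceps femoris and liver on postnatal day 5 from the same neonates, while the labels place all tissues at birth. A level below is log2 of the background-corrected signal relative to the 75th percentile of all probes on that array, so that 0 is the level of that percentile and 1 unit is a doubling. Levels of different probes depend on how each probe hybridises and were not set against each other.

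The labels of the liver and umbilical cord arrays went against their markers, and this bears on every result that follows. All 14 probes of a hepatocyte marker list were higher on each of the 8 arrays labelled umbilical cord than on every other array, and their summed level there was 1051 to 3225 times the array's 75th percentile. On the 6 arrays labelled liver that sum was 0.564 to 1.34, and 9 of the 14 probes were well above background on none of them. CP, which encodes the plasma copper carrier ceruloplasmin, was at a median of −0.39 on the arrays labelled umbilical cord, and it was well above background on none of the liver-labelled or muscle arrays. All 10 probes of a matrix and stroma list were highest on every array labelled liver. The collagen gene COL1A1 was at a median of 4.95 there and at −1.21 on the arrays labelled umbilical cord, and VCAN, a matrix proteoglycan, at 5.17 and −1.60. All 7 striated muscle probes were highest on every muscle array, as labelled. The tissues are therefore called "labelled liver" and "labelled umbilical cord" throughout, and which RNA was on those arrays cannot be told from the labels.

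The arrays labelled umbilical cord held by far the highest level of every one of the 8 genes. All 8 were higher on each of these 8 arrays than on each of the other 14, an order shown by 9.11% of all probes tested. In a fit over the 22 arrays with limma all 8 were higher on arrays labelled umbilical cord than on those labelled liver at an adjusted p under 0.05, against 35.6% of all probes higher in that contrast, and all 8 were also higher than in skeletal muscle, against 29.1% of all probes. In RNA from whole tissue, fewer cells of a type and less RNA per cell cannot be told apart.

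**Figure D1:**
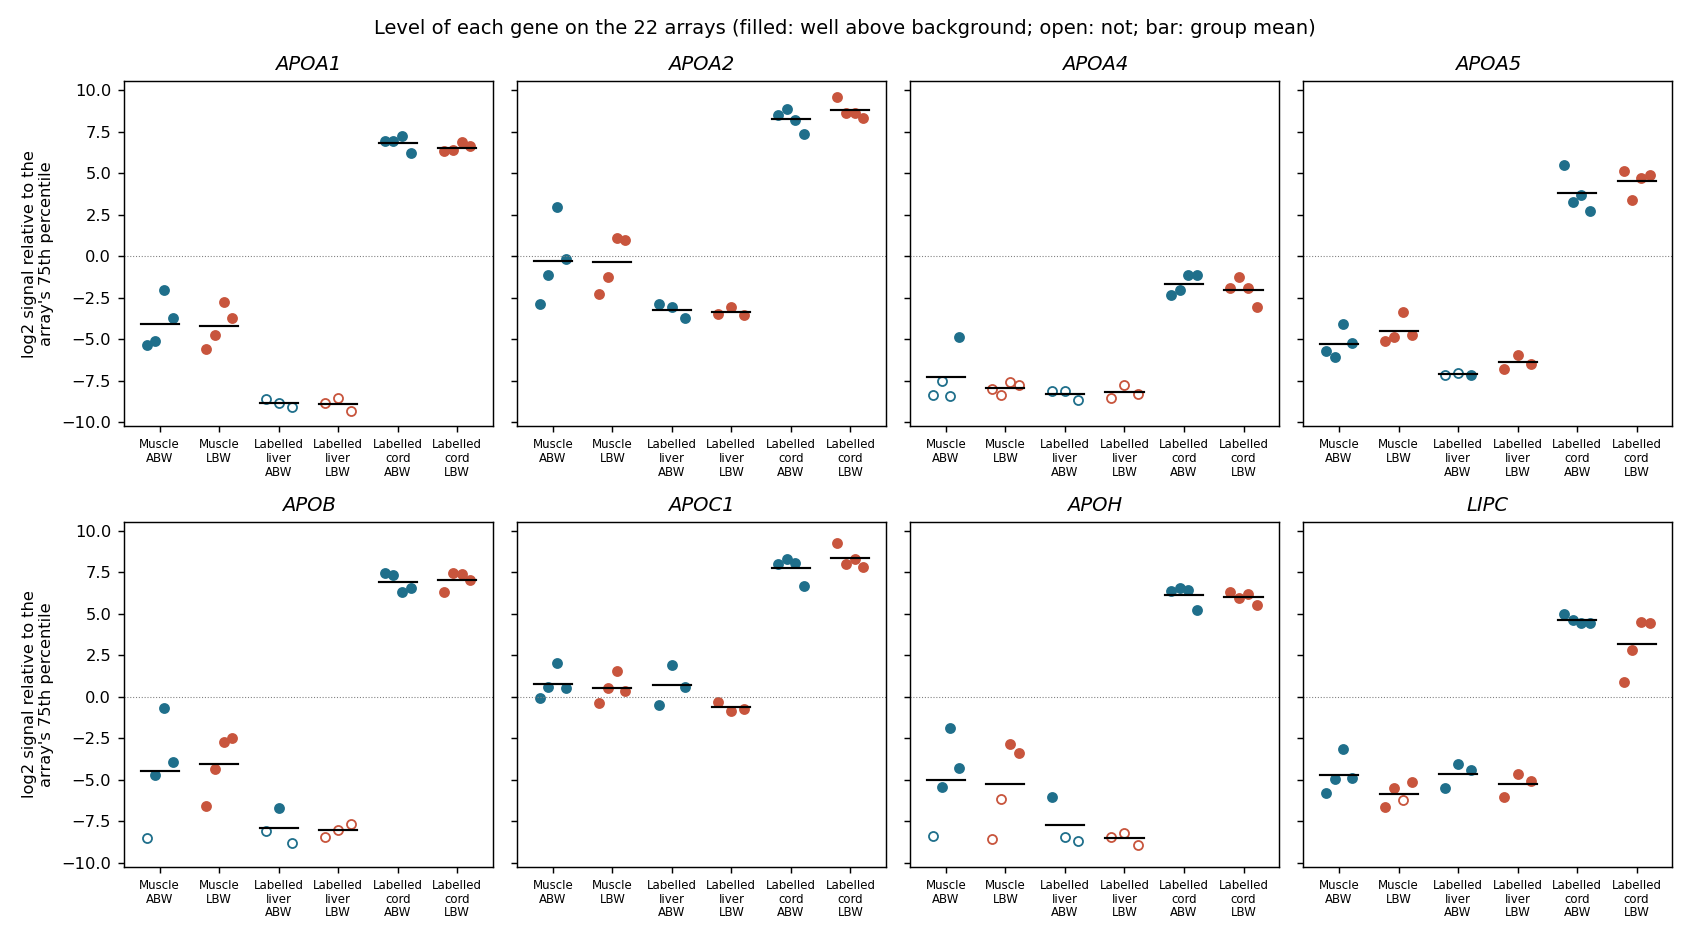
Each panel plots the level of 1 gene (log2 signal relative to the array's 75th percentile) on the 22 arrays by label and birth weight group, with filled points well above background, open points not, and a bar at the group mean. In all 8 panels the arrays labelled umbilical cord lie above all others, and APOA1 and APOA4 have open points on all 6 arrays labelled liver.

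Among the proteins of HDL, APOA1, its main structural protein and the activator of the enzyme that esterifies its cholesterol, was at 6.94, 6.90, 7.21 and 6.23 on the ABW arrays labelled umbilical cord and at 6.31, 6.39, 6.84 and 6.61 on the LBW arrays. In skeletal muscle it was at −5.37, −5.09, −2.02 and −3.75 in ABW and at −5.59, −4.77, −2.74 and −3.72 in LBW. It was well above background on all 8 muscle arrays and on none of the 6 arrays labelled liver. The arrays labelled umbilical cord were higher than muscle by 10.81 log2 units (SE 0.41, n = 8 and 8, limma adjusted p = 5.4e-15). Against the arrays labelled liver they were at least 16302-fold higher, a bound that sets each dim array at the lowest signal that was well above background there, or at the probe's own signal where that was higher (limma adjusted p = 1.76e-16).

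APOA2, the other structural protein of HDL, was well above background on all 22 arrays. It was at 8.51, 8.84, 8.20 and 7.36 on the ABW arrays labelled umbilical cord and at 9.60, 8.59, 8.63 and 8.34 on the LBW arrays. In muscle it was at −2.89, −1.11, 2.98 and −0.15 in ABW and at −2.26, −1.27, 1.08 and 0.96 in LBW, and on the arrays labelled liver it was at −2.90, −3.05 and −3.70 in ABW and −3.51, −3.07 and −3.53 in LBW. The 3 labels followed in the order cord, muscle, liver, with muscle spread over far more than the other labels. The cord label exceeded muscle by 8.84 (SE 0.62, adjusted p = 8.06e-11), and muscle exceeded the liver label by 2.96, which is 7.79-fold (liver minus muscle −2.96, SE 0.67, limma adjusted p = 0.000614).

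APOA4, a protein of chylomicrons and HDL made mainly by the intestine, stayed below the 75th percentile on every array. It was at −2.32, −2.04, −1.15 and −1.15 on the ABW arrays labelled umbilical cord and at −1.94, −1.28, −1.90 and −3.07 on the LBW arrays. Elsewhere it was well above background on 1 array alone, muscle ABW replicate 4, at −4.88. The cord label was at least 43.9-fold higher than the liver label (limma adjusted p = 5.51e-11) and at least 28.2-fold higher than muscle (7.57e-11).

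APOB, the scaffold of very low and low density lipoprotein, was at 7.47, 7.32, 6.31 and 6.54 on the ABW arrays labelled umbilical cord and at 6.30, 7.48, 7.39 and 7.01 on the LBW arrays. In muscle it spanned −8.51, −4.68, −0.67 and −3.95 in ABW and −6.59, −4.33, −2.74 and −2.47 in LBW, and ABW replicate 1 alone was not well above background. Of the 6 arrays labelled liver, 1 was well above background, ABW replicate 2 at −6.72. The cord label exceeded muscle by 11.22 (SE 0.77, adjusted p = 6.86e-11) and was at least 18624-fold higher than the liver label (adjusted p = 2.74e-12).

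APOH, or beta-2-glycoprotein I, a plasma protein that binds anionic phospholipids, followed the same pattern. It was at 6.37, 6.52, 6.45 and 5.21 on the ABW arrays labelled umbilical cord and at 6.30, 5.95, 6.19 and 5.53 on the LBW arrays. In muscle it was at −8.38, −5.45, −1.86 and −4.31 in ABW and at −8.54, −6.17, −2.82 and −3.37 in LBW, and 5 of the 8 arrays were well above background. Of the arrays labelled liver, ABW replicate 1 alone was well above background, at −6.01. The cord label exceeded muscle by 11.18 (SE 0.80, adjusted p = 1.18e-10) and was at least 9366-fold higher than the liver label (adjusted p = 1.02e-11).

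APOC1, an exchangeable apolipoprotein that slows the uptake of remnant particles and inhibits cholesteryl ester transfer, was, like APOA2, well above background on all 22 arrays. It was at 8.0, 8.29, 8.04 and 6.69 on the ABW arrays labelled umbilical cord and at 9.29, 8.02, 8.31 and 7.79 on the LBW arrays. In muscle it was at −0.06, 0.59, 2.02 and 0.56 in ABW and −0.38, 0.53, 1.58 and 0.33 in LBW. The cord label exceeded muscle by 7.41 (SE 0.37, adjusted p = 4.21e-13) and the liver label by 8.03 (SE 0.40, adjusted p = 4.71e-13). Macrophages also express this gene, and the summed level of 5 macrophage marker probes was 0.983 to 3.83 in muscle, 10.4 to 19.3 under the liver label and 32.2 to 132 under the cord label; their part in the level of APOC1 was not tested.

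The regulators of triglyceride hydrolysis were measured in every label. APOA5, which promotes the action of lipoprotein lipase, was at 5.47, 3.25, 3.71 and 2.69 on the ABW arrays labelled umbilical cord and at 5.13, 3.40, 4.72 and 4.91 on the LBW arrays. In muscle it was at −5.69, −6.10, −4.11 and −5.24 in ABW and at −5.12, −4.85, −3.35 and −4.76 in LBW. The cord label exceeded muscle by 9.06 (SE 0.38, limma adjusted p = 2.21e-14) and the liver label by 10.92 (SE 0.41, limma adjusted p = 5.97e-15). APOA5 was well above background on 4 of the 6 arrays labelled liver, so that the 10.92 rests partly on dim values. LIPC, hepatic lipase itself, was at 4.97, 4.61, 4.48 and 4.45 on the ABW arrays labelled umbilical cord and at 0.90, 2.84, 4.51 and 4.43 on the LBW arrays. The cord label exceeded muscle by 9.17 (SE 0.46, adjusted p = 4.33e-13) and the liver label by 8.85 (SE 0.50, adjusted p = 3.04e-12).

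Below the cord label, most of the genes were lower on the arrays labelled liver than in skeletal muscle. At an adjusted p under 0.05, 5 of the 8 were lower on the liver-labelled arrays, against 37.1% of all probes: APOA1, APOA2, APOA5, APOB and APOH. Of the 14 hepatocyte markers 11 were lower there by the same test, with a median difference over the list of −2.30. However, 9 of the 14 were well above background on no liver-labelled array and 2 on no muscle array. That median is therefore not a measured size, and the part of these markers in the levels of the 5 genes was not tested. Muscle was at least 9.08-fold higher for APOA1, 7.80-fold for APOB and 4.04-fold for APOH as bounds (limma adjusted p = 1.35e-08, 0.000624 and 0.00484). APOA5 was 3.63-fold higher in muscle (liver minus muscle −1.86, SE 0.41, limma adjusted p = 0.000518), a call that was lost when the arrays were scaled to spike-in controls (adjusted p = 0.137) or corrected by normexp, a model-based background correction (adjusted p = 0.0829). For APOC1 the 2 lower labels differed by less than the test could separate (liver minus muscle −0.62, 95% interval −1.46 to 0.22, limma adjusted p = 0.184), although without the liver-labelled ABW replicate 2 the difference was −0.92 (adjusted p = 0.0478). LIPC also showed no separable difference (0.32, −0.72 to 1.36, adjusted p = 0.591), and APOA4 was not well above background on any liver-labelled array or on 7 of the 8 muscle arrays, so no order was drawn.

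The other genes of the lipoprotein pathway were examined as a list of 36 accessions, of which 29 were on the array and 28 probes were kept. It holds further apolipoproteins (6 kept) and HDL enzymes (3 kept), beside genes of assembly, transfer, lipolysis, uptake and sterol export. At an adjusted p under 0.05 (limma), 21 of the 28 had a higher level under the cord label than under the liver label, beside 35.6% of all probes, and 2 a lower one, beside 31.3% of all probes. Of the 21, 5 were apolipoproteins and 3 HDL enzymes. Of the 5 receptor probes kept, 1 was higher and 2 were lower. On every array labelled umbilical cord 18 of the 28 were highest, the order shown by all 8 genes above and by 9.11% of all probes. Against muscle, by the same test, 21 were higher and 5 lower, beside 29.1% and 35.8% of all probes. None of the 28 passed an adjusted p of 0.05 between LBW and ABW in any label (limma).

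The named probes outside the list whose levels were most like the mean course of the 8 genes over the 22 arrays were those of RDH16, TMPRSS6, PNMA3, GJB1 and SEPSECS, with Pearson correlations from 0.982 to 0.989. All 22 arrays fall into 3 labels that differ widely in level, so that the coefficient largely restates the order of the labels, and 5.12% of the 17109 probes searched exceeded 0.9.

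Between LBW and ABW, none of the 8 genes passed an adjusted p of 0.05 in any label (limma, Benjamini-Hochberg adjustment over 17117 probes). Both groups had an array well above background, and so a measurable difference, for 7 of the 8 genes in muscle, for 4 under the liver label (APOA2, APOA5, APOC1 and LIPC) and for 8 under the cord label; the others were tested but hold no measurable difference there. In skeletal muscle 0% of all probes passed, under the liver label also 0%, and under the cord label 0.625%. At an unadjusted p under 0.05 with a change over 1.5-fold, 0 of the 8 genes passed in muscle (12.2% of all probes), 1 under the liver label (4.71%) and 0 under the cord label (8.93%). The methods' t-test called 0 of the 8 in each label at its own threshold, which 7.97% of all probes passed in muscle, 1.81% under the liver label and 5.89% under the cord label, and 0 after Benjamini-Hochberg adjustment. Averaged over the 3 labels, 0 of the 8 passed the adjusted test (0.888% of all probes) and 2 had an unadjusted p under 0.05 (13.6% of all probes), and 0 of the 8 had a birth weight difference that depended on the label at an adjusted p under 0.05 (1.01% of all probes; at an unadjusted p under 0.05, also 0). As labels do not say which arrays came from which neonate, these p-values measure the spread between arrays.

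**Figure D2:**
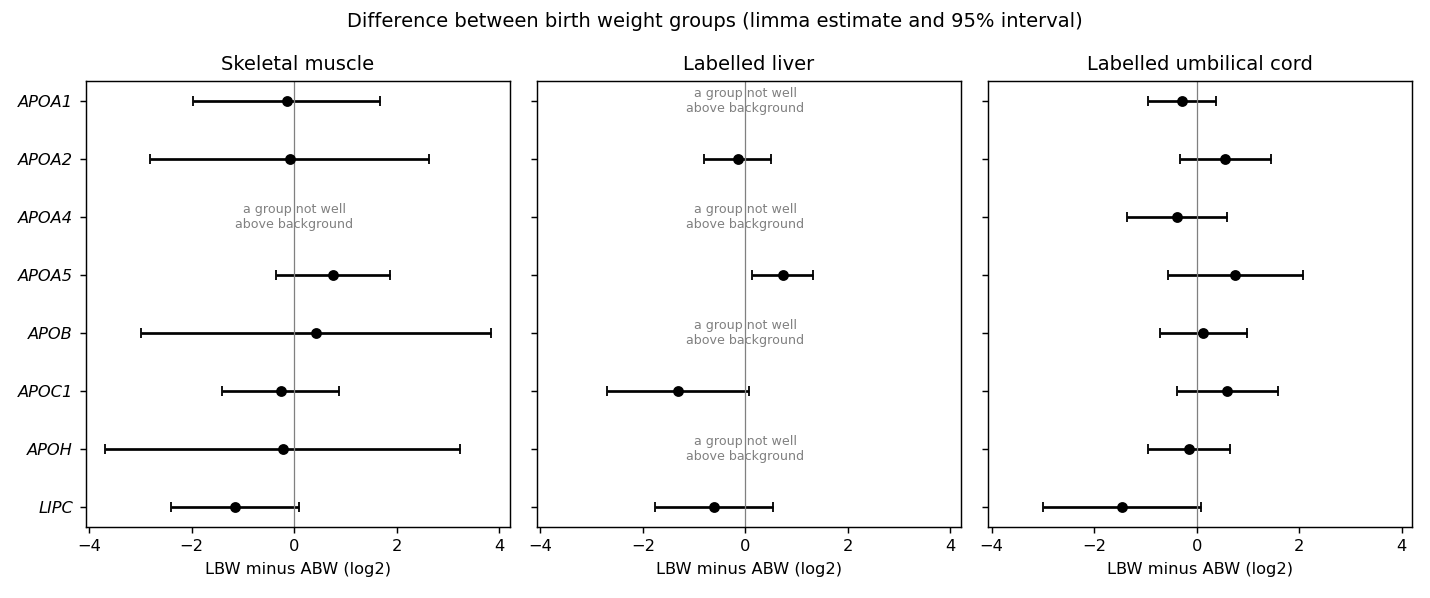
Points give the LBW minus ABW difference in log2 units by label, with 95% intervals from limma, for the 8 genes; genes with a group that was nowhere well above background have no point. Intervals in muscle reach from −3.69 to 3.24 for APOH and from −2.99 to 3.84 for APOB, and LIPC lies below 0 and APOA5 above 0 in all 3 panels.

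LIPC was lower in LBW in all 3 labels, without passing the adjusted test in any. On the arrays labelled umbilical cord the difference was −1.46 (SE 0.70, 95% interval −3.0 to 0.09, limma adjusted p = 0.574), which is 2.75-fold. LBW replicates 1 and 2 were far below the ABW range of 4.45 to 4.97, at 0.90 and 2.84, replicate 4 was just below it at 4.43, and replicate 3 was within it at 4.51; a two-sided exact permutation test gave p = 0.114, where 4 arrays against 4 allow 0.0286 at the smallest. Without LBW replicate 1 the difference was −0.70. All 4 LBW arrays shared 1 slide, and the ABW arrays were split over 2 slides; against the ABW arrays of one slide the difference was −1.62 and against those of the other −1.29.

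In skeletal muscle LIPC was at −5.81, −4.92, −3.12 and −4.92 in ABW and at −6.60, −5.49, −6.19 and −5.11 in LBW. The groups overlapped, LBW replicate 3 was not well above background, and the difference was −1.16 (SE 0.55, 95% interval −2.40 to 0.09, limma adjusted p = 0.378; exact permutation p = 0.143). Without ABW replicate 3 it was −0.63. Under normexp it was −0.07, and as every ABW muscle array was on one slide and every LBW muscle array on another, the slide and the birth weight group of a muscle array cannot be told apart. On the arrays labelled liver LIPC was at −5.47, −4.04 and −4.42 in ABW and −6.01, −4.67 and −5.09 in LBW (difference −0.61, SE 0.48, limma adjusted p = 0.925). It was −0.23 without LBW replicate 1, and −1.36 within the slide that held all 3 ABW arrays and LBW replicate 1, so that this last value rests on a single LBW array. Without ABW replicate 1 the liver-labelled difference was −1.02, without ABW replicate 2 it was −0.31, and under normexp −0.22. Averaged over the 3 labels the difference was −1.07 (SE 0.40, 95% interval −1.90 to −0.25, unadjusted p = 0.0137, limma adjusted p = 0.247). This average was −0.63 under normexp and −1.46 without scaling. Its interval and p-value took the arrays of the 3 labels as independent, although per the methods muscle and liver came from the same neonates. The study's own list of birth weight genes holds the accessions of LIPC and APOA5 and was chosen on these same samples, so that their direction here is not independent evidence.

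The mean level of APOA5 was higher in LBW in each label, again short of the adjusted test. The difference was 0.77 in muscle (SE 0.50, limma adjusted p = 0.520), 0.76 under the cord label (SE 0.60, adjusted p = 0.721) and 0.73 under the liver label (SE 0.25, unadjusted p = 0.0231, adjusted p = 0.813). The liver-labelled arrays did not overlap, at −7.18, −7.02 and −7.17 in ABW and −6.78, −5.95 and −6.46 in LBW, but the ABW values rest on 1 array well above background, and 3 arrays against 3 allow an exact permutation p of 0.10 at the smallest, which this reached. Under normexp the liver-labelled difference was 0.09, and with LBW replicate 1 alone, on the slide of the 3 ABW arrays, it was 0.35. Under the cord label it was 0.18 against the ABW arrays of one slide and 1.34 against those of the other, and leaving out 1 array gave 0.40 to 1.32. In muscle it was 0.37 without LBW replicate 3 and 0.49 without ABW replicate 2, 1.16 without ABW replicate 3, 0.36 under normexp and 0.35 under spike-in scaling. Averaged over the labels APOA5 was higher by 0.75 (SE 0.33, 95% interval 0.07 to 1.43, unadjusted p = 0.0325, limma adjusted p = 0.326). This average was 0.39 under normexp and 0.37 without scaling. Its interval and p-value also took arrays of different labels as independent.

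APOC1 on the arrays labelled liver was at −0.48, 1.91 and 0.62 in ABW and at −0.31, −0.84 and −0.74 in LBW. The difference of −1.31 (SE 0.57, 95% interval −2.69 to 0.06, limma adjusted p = 0.831; exact permutation p = 0.20) rested on ABW replicate 2, without which it was −0.70, and it was −0.99 for LBW replicate 1 alone, on the slide of the 3 ABW arrays. The macrophage marker sum was 10.4 to 14.7 in the ABW and 10.8 to 19.3 in the LBW arrays of that label. In muscle the difference for APOC1 was −0.26 (SE 0.51) and on the arrays labelled umbilical cord 0.60 (SE 0.44).

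On the arrays labelled umbilical cord the scale mattered for the sign of small differences. The 75th percentile ranged from 315 to 2390 over these 8 arrays, 7.58-fold, lowest in LBW replicate 1 and highest in ABW replicate 4. Before scaling, the signal of APOA2 ranged from 189832 to 393009, only 2.07-fold, and that of APOC1 from 135408 to 246138, 1.82-fold, although none of these spots was marked as saturated. The signal of APOB ranged 8.95-fold and that of LIPC 88.5-fold, from 590 to 52186.

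**Figure D3:**
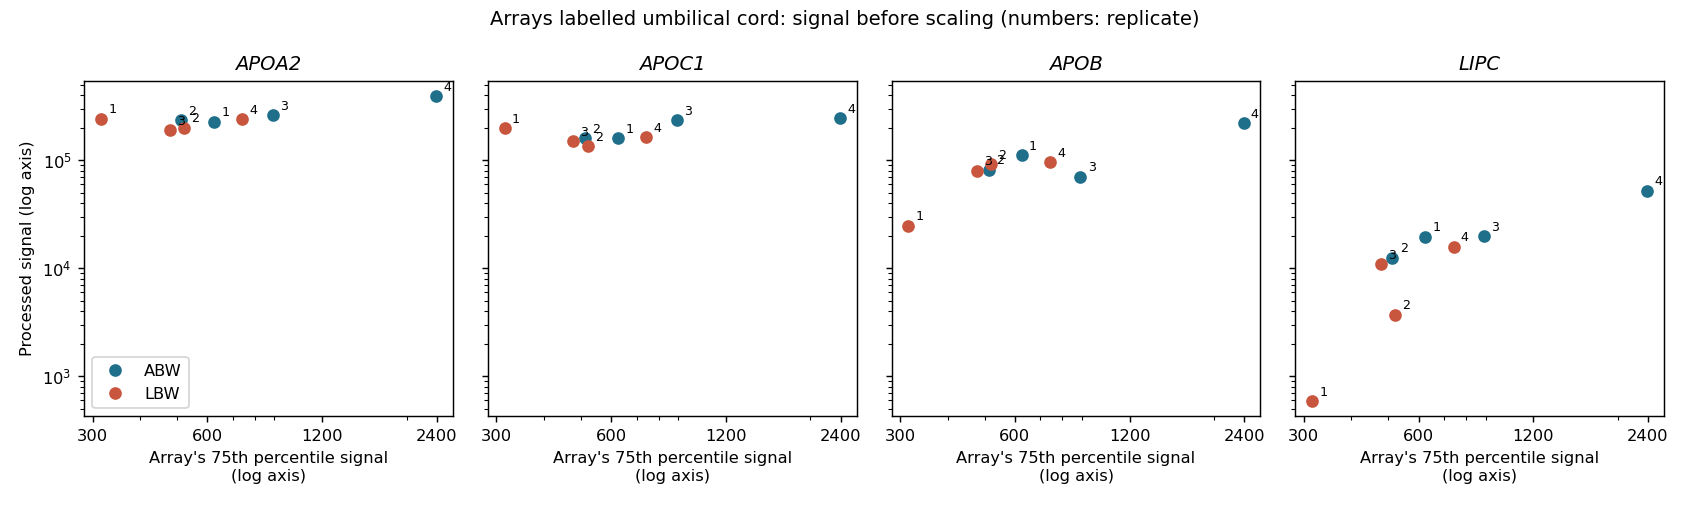
Each panel sets the processed signal of 1 gene before scaling against the array's 75th percentile signal (both on log axes) for the 8 arrays labelled umbilical cord, with ABW and LBW in different colours and replicates numbered. APOA2 and APOC1 vary 2.07-fold and 1.82-fold across a 7.58-fold range of the percentile, whereas LIPC varies 88.5-fold with LBW replicates 1 and 2 lowest.

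After scaling, APOA2 and APOC1 had higher mean levels in LBW, by 0.56 (SE 0.40, limma adjusted p = 0.691) and 0.60 (SE 0.44, adjusted p = 0.705), and without scaling the differences were −0.33 and −0.29. APOA5 turned in the same way, from 0.76 to −0.13, and APOB from 0.13 (SE 0.38) to −0.76, on a scale on which the median of all probes moved to −0.90. Leaving out the scaling adds the same −0.89 to the difference of every gene, and the other scalings tried kept the sign of APOA2, APOC1 and APOA5. The differences of APOA2 and APOC1 were nevertheless 0.12 and 0.17 under quantile normalization and 0.20 and 0.24 under spike-in scaling. They were 0.27 and 0.24 without ABW replicate 4, both 0.29 without LBW replicate 1, 0.12 and 0.21 against the ABW arrays of one slide, and 1.01 and 0.99 against those of the other. LIPC was lower in LBW under each of these scales and was −2.35 without scaling. APOA1 differed by −0.28 (SE 0.30), APOH by −0.14 (SE 0.36) and APOA4 by −0.38 (SE 0.44), each within the spread between replicates. Of the 14 hepatocyte markers on these arrays, 2 were lower in LBW at an adjusted p under 0.05 (0.625% of all probes passed in either direction), CP by −3.72 (SE 0.49, limma adjusted p = 0.00909) and F13B by −3.81 (SE 0.43, adjusted p = 0.00707), and 0 were higher. The median difference over the 14 was 0.05. The paper's list of top cord genes, drawn from these same samples, already holds CP and F13B as lower in LBW. Their calls and direction here are therefore not independent evidence. With the methods' t-test, and against the ABW arrays of one slide alone (replicates 1 and 2), 0 of all probes passed an adjusted p of 0.05 (1008 and 715 an unadjusted p under 0.05 with a change over 1.5-fold), so that both calls were lost there. Against the ABW arrays of the other slide alone (replicates 3 and 4), 140 of all probes passed the adjusted test. With slide as a random block 182 passed. However, no slide held cord-labelled arrays of both birth weight groups. Neither this block nor the comparisons with the ABW arrays of a single slide could therefore remove a slide effect from these counts. In the separate test over the mean of the 3 labels TAT, a tyrosine-degrading enzyme of hepatocytes, passed toward higher levels in LBW (limma adjusted p = 0.0403) and CP and F13B toward lower ones (0.0140 and 0.00358), beside 0.888% of all probes. TAT was well above background on 4 of the 8 muscle and 1 of the 6 liver-labelled arrays, and CP and F13B on none, so no size is given. For CP and F13B the difference also depended on the label (limma interaction test, adjusted p = 0.00967 and 0.000646), beside 1.01% of all probes. Their average therefore does not stand for a difference in every label.

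The muscle arrays varied more in these genes than in most others. Of the 4 genes that were well above background on all 8 muscle arrays, APOA2 had a standard deviation of 1.94, APOA1 of 1.29, APOA5 of 0.87 and APOC1 of 0.80, above those of 99.6%, 98.0%, 92.3% and 89.7% of all probes tested, whose median was 0.41. APOB and APOH, which also varied widely, had 1 and 3 arrays not well above background. The variation ran across both birth weight groups. ABW replicate 3 was the highest of the 8 muscle arrays for 6 of the 8 genes, an order shown by 6.57% of all probes, and APOA2 was 58.5-fold higher there than on ABW replicate 1. LBW replicate 3 was the second highest for 4 genes. LBW replicate 1 had the lowest value for 4, APOA1, APOC1, APOH and LIPC. APOH was not well above background there or on ABW replicate 1, so which of those arrays was lower was not measured. APOA4 was well above background on 1 muscle array alone, ABW replicate 4, so its order over the others was not read. LIPC was not well above background on LBW replicate 3, so that its lowest array was not settled.

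**Figure D4:**
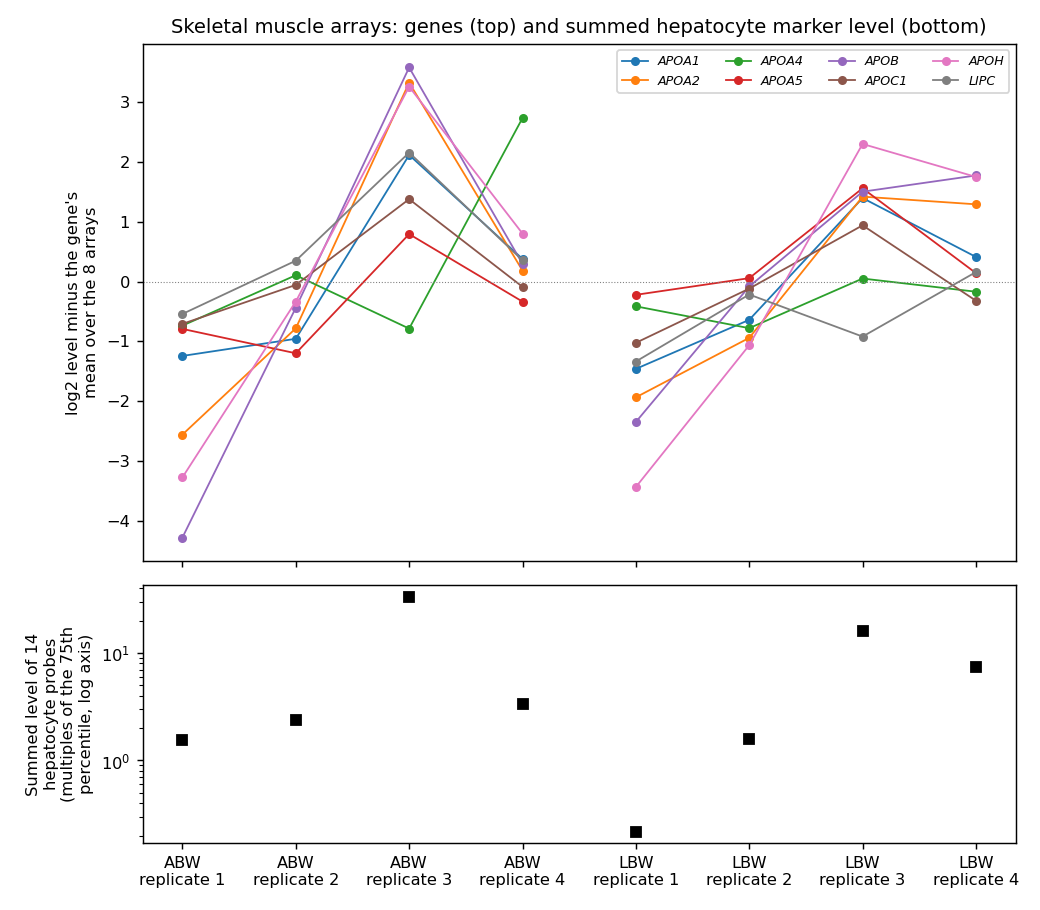
The upper panel plots each gene's log2 level on the 8 skeletal muscle arrays minus its mean over them, and the lower panel the summed level of 14 hepatocyte marker probes on the same arrays (multiples of the 75th percentile, log axis). ABW replicate 3 is high in both panels for every gene but APOA4, LBW replicate 3 is high for every gene but APOA4 and LIPC, and LBW replicate 1 is low in both.

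The hepatocyte marker list moved over the muscle arrays with them. Its summed level was 33.5 on ABW replicate 3, 16.0 on LBW replicate 3 and 7.48 on LBW replicate 4, and between 0.217 and 3.33 on the other 5 arrays, lowest on LBW replicate 1. ABW replicate 3 was the highest muscle array for 12 of the 14 probes. From 4 to 11 of the 14 probes were well above background per array, and CP and F13B, the latter encoding the B subunit of clotting factor XIII, were above it on none of the 8. The sum spanned 1.55 to 33.5 in ABW and 0.217 to 16.0 in LBW, and its part in the levels of these genes in muscle was not tested.

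This spread set the precision of the muscle comparison. APOA1 differed by −0.15 (SE 0.81), APOA2 by −0.08 (SE 1.21), APOB by 0.42 (SE 1.51) and APOH by −0.22 (SE 1.54), with adjusted p-values from 0.931 to 0.982 (limma). Without ABW replicate 3 these differences were 0.53, 1.01, 1.68 and 0.82, and APOC1 turned from −0.26 to 0.15. The 95% interval for APOA1 ran from −1.97 to 1.68, so that changes of a few fold either way were not detectable with 4 arrays a group.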

How the data were processed

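The deposited scanner files hold the processed signal intensity of each spot, which the authors obtained with Agilent Feature Extraction (10.1.1.1 on 20 arrays and 10.5.1.1 on the 2 ABW arrays labelled umbilical cord of one slide, per the file headers), background-subtracted and not scaled between arrays. The authors also deposited a table of log2 values, which the methods describe as scaled to the 75th percentile and baseline-transformed in GeneSpring GX. Its probes were centred on their median within each tissue label, on 100% of probes, so it was used within labels alone, as an alternative. Its column medians ran from −0.13 to 0.26. The array's design carries human accessions, and labelling started from oligo-dT, so that the values depend on how well macaque transcripts match human-named probes near their 3′ ends.

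Spots flagged as outliers were left out, the 2 spots of a probe were averaged (members' spots differed by a median of 1.07-fold where both were well above background), and log2 intensities were taken relative to each array's 75th percentile, as in the methods. A probe was kept if it was well above background on 75% of the arrays in at least one of the 6 groups. LBW was tested against ABW within each label on that label's arrays with limma 3.58.1 (R 4.3.3), and labels were compared in a fit of all 6 groups, with Benjamini-Hochberg adjustment over all 17117 probes. The fit was tested on simulated data. No pair of arrays held identical values. Per array, 14594 to 17887 of 20217 probes were well above background; the number of arrays limits the precision.

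The members and lists were chosen with earlier results of these data known. The 75 list accessions were paired with symbols from general knowledge. The 8 that the supplementary gene list also names had the same symbols, and the other 67 were not checked, which bears on every list count. List genes were named individually from that table alone. Named in the text were all members, list genes that passed a birth weight test or define a label, and the 5 probes most like the members. Alternatives were normexp (offset 50), scaling to the median, by quantiles or to spike-in controls, a floor, other filters, the methods' t-test, the 6-group fit, replicate and slide blocks, leaving out each array, and, chosen after seeing the data, no scaling and slide as a fixed block. Within a label, same-numbered ABW and LBW arrays correlated from −0.22 to 0.30 in their deviations. Whether same-numbered arrays of different labels came from the same neonate was not tested.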

Additional observations from a re-analysis of the deposited data

Results flagged for a closer look

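One of the 32 gene and group combinations with 4 arrays held an array far from the others: APOH on the ABW arrays labelled umbilical cord, where replicate 4 was at 5.21 and the other 3 arrays lay between 6.37 and 6.52. By Dixon's test about 1 in 20 groups is marked in this way by chance. That array had the highest 75th percentile of all, 2390, and was 1 of the 2 scanned with the later software version. The part of either in this value was not tested. Groups of 3 arrays were not examined in this way.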

How the results depend on the processing

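The counts of genes passing an adjusted p of 0.05 stayed at 0 of 8 in each birth weight comparison under every alternative run, the replicate block included. Under that block the differences within labels are unchanged by construction and the adjusted p of LIPC was 0.402 in muscle, 0.804 under the liver label and 0.636 under the cord label. The counts stayed at 8 of 8 for the cord label against the liver label and against muscle, and between 4 and 6, with 5 as reported, for the liver label against muscle. Gene by gene, on the arrays labelled umbilical cord, no scaling turned APOA2 to −0.33, APOA5 to −0.13, APOB to −0.76 and APOC1 to −0.29. APOB also turned under normexp (−0.0074), quantiles (−0.038), spike-in scaling (−0.23) and against ABW replicates 1 and 2 alone, which shared a slide (−0.35), APOA4 turned against the same 2 arrays (0.13) and APOH against ABW replicates 3 and 4, which shared another (0.17). In muscle, APOB was −0.10 under normexp. On the arrays labelled liver, APOA2 was 0.013 under spike-in scaling. Averaged over labels, APOA2 was −0.036 under quantiles, −0.095 under spike-in scaling and −0.27 without scaling. For the liver label against muscle, APOC1 was 0.083 under spike-in scaling and LIPC −0.31 under normexp. The causes were not tested.

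Leaving out each array in turn, the muscle differences ranged from −0.64 to 0.53 for APOA1, from −0.95 to 1.01 for APOA2, from −0.93 to 1.68 for APOB, from −0.62 to 0.15 for APOC1 and from −1.35 to 0.88 for APOH. Under the liver label APOA2 ranged from −0.39 to 0.0084, and under the cord label APOB ranged from −0.069 to 0.38 and APOH from −0.46 to 0.0092. APOA1 ranged under the cord label from −0.48 to −0.15 and APOA4 from −0.64 to −0.040. Averaged over labels APOA2 ranged from −0.18 to 0.47. LIPC stayed below 0 and APOA5 above 0 in each label when any 1 array was left out. Under spike-in scaling the median LBW minus ABW difference of all probes was −0.35 in muscle, 0.22 under the liver label and −0.37 under the cord label, where it was 0.07, 0.06 and −0.0097 as reported.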
